A study of Mus musculus with 4 samples.

Results

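The 10 genes described here carry peptides to the cell surface on MHC class I. They are *H2-K1* and *H2-D1*, which encode the classical class I heavy chains, *B2m*, which encodes their light chain, *Tap1* and *Tap2*, which encode the peptide transporter, *Tapbp*, which encodes tapasin, *Psmb8*, *Psmb9* and *Psmb10*, which encode the catalytic subunits of the immunoproteasome, and *Nlrc5*, which encodes the transactivator of class I genes. They were chosen by function from the 54532 Ensembl mouse genes of the deposited count table, and each symbol matched 1 gene of GENCODE release M21. All 10 were among the 16451 genes that passed edgeR's filter on low counts, and the lowest count of any of them was 87 reads, for *Psmb9* in library M7.

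TAMs (tumor-associated macrophages) were isolated from subcutaneous tumors of NB9464 cells, a murine neuroblastoma line with amplified MYCN, on day 40 after implantation, and no treatment was given. Libraries M7 and M8 are labelled SYK WT (Syk MC-WT mice) and M9 and M10 SYK KO (Syk MC-KO mice), all from C57BL/6 mice that were 4 to 6 weeks old at implantation. In Syk MC-KO mice a floxed *Syk* allele meets Cre recombinase under the lysozyme M promoter, which is active in granulocytes as well as macrophages, and the alleles of the Syk MC-WT controls are not given in the sources used here. The comparison asks how the transcripts of TAMs differ when myeloid cells lack Syk, a tyrosine kinase that signals from immune receptors. CD11b and F4/80 magnetic beads were used to isolate the cells. The labels do not say whether a library is 1 mouse or a pool, so p-values measure the spread between these libraries, which may be technical. The labels also name BMDMs (bone marrow-derived macrophages) in the line on RNA extraction and adoptive transfer in the series title.

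The libraries did not bear out their labels for the deleted gene. *Syk* was 27.9 CPM in M7 and 23.2 CPM in M8, against 196 CPM in M9 and 160 CPM in M10 (CPM, the count scaled to library size and TMM factor). Every direction below therefore refers to the names on the libraries and not to a checked loss of *Syk*. Sequencing depth lay between 20755886 and 23518045 counts, mitochondrial genes took 2.20% and 2.34% of the counts in M7 and M8 against 6.00% and 15.9% in M9 and M10, 23018 and 23026 genes were detected against 20616 and 19553, and the rRNA gene class took between 1.58% and 7.27%. The 10 macrophage markers summed to 1122 and 776 CPM in the Syk MC-WT libraries and to 9212 and 5799 CPM in the Syk MC-KO libraries, all 10 with an adjusted p under 0.05, and the 6 pan-leukocyte genes were all higher too, by a median log2 fold change of 3.47. The 8 fibroblast markers summed to 12549 and 14444 CPM against 4059.7 and 4959 CPM, 5 of them lower. Of the markers tested, 4 of 6 for dendritic cells, 5 of 5 for neutrophils and 5 of 6 for T cells were higher, 0 of 1 for NK cells and 0 of 3 for B cells passed the threshold, 3 of 6 for endothelial cells were lower and 2 of 4 for tumor cells were higher. The 8 tumor cell markers summed to 285 and 323 CPM in M7 and M8 and to 211 and 333 CPM in M9 and M10. Of these 8, 3 were at 0 counts in every library, *Th* and *Dbh* among them. In bulk RNA, fewer cells of a type and less RNA per cell cannot be told apart, and here the mix of cells and the genotype labels cannot be told apart either.

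MHC class I displays fragments of a cell's own proteins to CD8+ T cells, and nearly all nucleated cells express it, leukocytes more than most. The proteasome cuts proteins into peptides, and interferons induce the immunoproteasome subunits, which take the places of the constitutive subunits *Psmb5*, *Psmb6* and *Psmb7* and shift the cuts towards peptides that class I binds. TAP pumps these peptides into the endoplasmic reticulum, tapasin holds the empty heavy chain and B2m beside TAP, and the loaded complex travels to the surface. NLRC5 binds no DNA itself and joins a complex of RFX and NF-Y proteins on the S, X and Y boxes of class I promoters, as CIITA does on class II promoters.

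Of the 10 genes, 8 had a promoter window in RefSeq (GRCm38.p6), 250 bases before to 50 after the start site, and *Tap2* and *Nlrc5* had none. The 250 bases before the start site are shown 5′ to 3′ for the heavy chains and *B2m*, whose windows share an arrangement of motifs, and for *Tap1*, whose window is also most of the *Psmb9* promoter. Capitals mark GAANNGAAA (a core bound by interferon regulatory factors), TGACG (part of the X box) and CCAAT (the Y box), each searched on both strands. Of the 2 windows of *H2-K1*, that which begins where the GENCODE gene begins is shown.
H2-K1 chr17:34000348-34000597, strand -: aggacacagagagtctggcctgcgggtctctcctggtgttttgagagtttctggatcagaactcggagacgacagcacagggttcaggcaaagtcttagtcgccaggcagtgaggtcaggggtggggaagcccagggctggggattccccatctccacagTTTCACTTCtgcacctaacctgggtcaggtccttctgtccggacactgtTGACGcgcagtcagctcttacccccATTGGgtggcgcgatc
H2-D1 chr17:35262844-35263093, strand +: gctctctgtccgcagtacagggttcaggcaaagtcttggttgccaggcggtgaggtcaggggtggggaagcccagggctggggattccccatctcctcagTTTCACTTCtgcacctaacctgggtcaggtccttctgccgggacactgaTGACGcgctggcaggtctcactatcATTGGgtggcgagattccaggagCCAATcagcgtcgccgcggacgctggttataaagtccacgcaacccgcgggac
B2m chr2:122147437-122147686, strand +: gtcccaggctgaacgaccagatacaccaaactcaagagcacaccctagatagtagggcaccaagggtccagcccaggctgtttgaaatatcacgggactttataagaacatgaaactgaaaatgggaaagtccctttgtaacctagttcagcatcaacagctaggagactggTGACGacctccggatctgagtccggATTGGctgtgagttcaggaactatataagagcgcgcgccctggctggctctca
Tap1 chr17:34187306-34187555, strand +: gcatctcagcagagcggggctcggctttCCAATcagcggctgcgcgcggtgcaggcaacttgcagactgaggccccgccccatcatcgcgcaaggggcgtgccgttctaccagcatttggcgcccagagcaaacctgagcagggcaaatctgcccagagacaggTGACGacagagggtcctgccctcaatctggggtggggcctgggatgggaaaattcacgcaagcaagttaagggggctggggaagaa
TGACG was followed, with 20 bases between, by ATTGG in the windows of *H2-K1*, *H2-D1* and *B2m*, on the strand of the gene, whereas this arrangement on either strand was found in 31 of all 32817 windows (0.0945%). These windows belonged to 27 genes, and the only other gene with an H2 symbol among them was *H2-M3*. For the pair, only the gap that *H2-K1*, *H2-D1* and *B2m* hold was searched, so its share of all windows is no test of enrichment. GAANNGAAA was found in *H2-K1* and *H2-D1* and in 7.52% of all windows. The *B2m* window shown holds gaaactgaaa, which differs from this pattern, and such variants were not searched. TGACG alone was found in 20.8% of all windows and CCAAT in 37.4%. The start sites of *Tap1* and *Psmb9* lay 226 bases apart on opposite strands, and their windows shared 275 bases. No match was found in the windows of *Psmb8* and *Psmb10*, and *Tapbp* held CCAAT only. A match describes letters in the window and not binding.

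All 10 genes rose, unevenly, in the libraries that carry the Syk MC-KO label. With TMM normalization each passed edgeR's quasi-likelihood test (adjusted p under 0.05, Benjamini-Hochberg, 16451 genes), beside 22.7% of all genes tested that were called higher and 16.7% that were called lower. In each of the 10, both Syk MC-KO libraries lay above both Syk MC-WT libraries, as they did for 38.0% of all genes tested. Log2 fold changes ran from 0.79 for *Tapbp* to 3.96 for *Psmb8* with a median of 2.12, whereas the median of all genes tested was 0.02. *Psmb8*, *Tap1*, *Psmb9* and *H2-K1* had log2 fold changes over 3, *H2-D1* and *B2m* lay near 2, and *Psmb10*, *Nlrc5*, *Tap2* and *Tapbp* lay below 1.6. Without M7, *Tap2*, *Tapbp* and *Nlrc5* no longer passed the threshold (7 of 10 called, beside 12.1% of all genes called higher), and without M8 *Tapbp* did not (9 of 10, beside 8.58%). All 10 passed with DESeq2 size factors (21.1% of all genes called higher), without mitochondrial and rRNA genes (20.3%), with every gene of at least 1 count (15.7%), with at least 10 counts in every library (24.5%) and with the DESeq2 Wald test (19.5%).

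**Figure D1:**
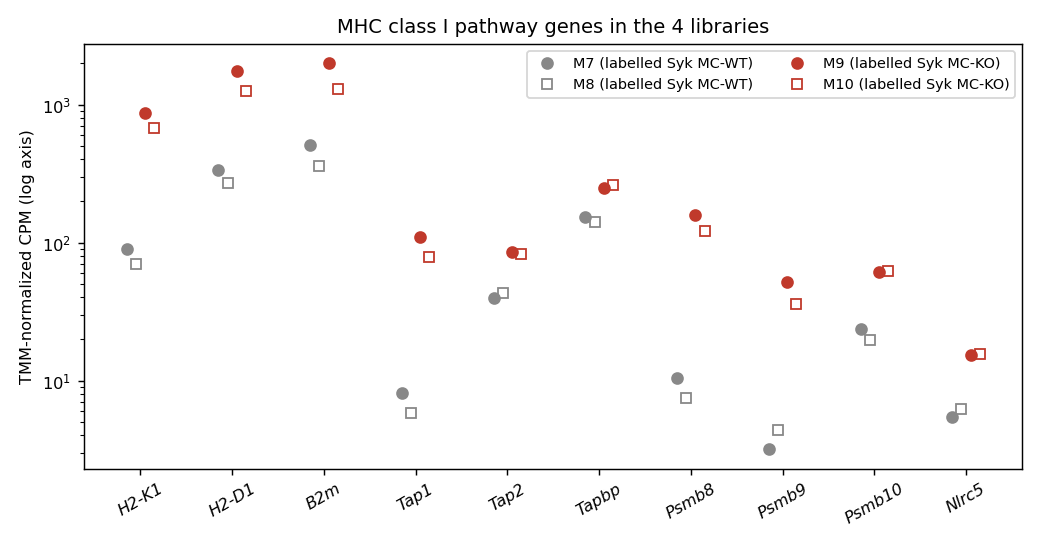
TMM-normalized CPM (log axis) of the 10 genes in each library, with grey points for the libraries labelled Syk MC-WT (M7 filled circle, M8 open square) and red points for those labelled Syk MC-KO (M9 filled circle, M10 open square). The red points lie above the grey ones for every gene, far apart for *Tap1*, *Psmb8*, *Psmb9* and *H2-K1* and close together for *Tap2* and *Tapbp*.

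A scaling shifts all genes by about the same amount, so it could hardly change the order among the 10 genes, but it changed the sign of some. The order was not fixed otherwise: without M8 the log2 fold change of *Psmb9* (3.77) lay above that of *Psmb8* (3.74). Scaled to the 10 macrophage markers, the median of all genes was -2.79 on the log2 scale, and *Psmb8* was called higher (log2 fold change 1.15, adjusted p = 0.0322, beside 0.760% of all genes). *Tap1* (0.93, adjusted p = 0.0898), *Psmb9* (0.63, adjusted p = 0.301) and *H2-K1* (0.44, adjusted p = 0.428) kept a positive value without passing. *Tap2*, *Tapbp*, *Psmb10* and *Nlrc5* were called lower in this scaling, as were 87.3% of all genes. Scaled to the 6 pan-leukocyte genes, *Psmb8* was called higher (0.76, adjusted p = 0.0375, beside 0.565% of all genes) and 6 of the 10 were called lower, beside 90.4% of all genes. The part that the larger macrophage and leukocyte signal, the mitochondrial share and the number of genes detected have in the rise was not tested.

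Counts were also divided by the summed counts of the same macrophage markers in each library. This is another scaling to those markers and not a separate check, and the genes divided in a similar way. *Psmb8* had 0.922 and 0.970 counts for every 100 counts of the summed macrophage markers in M7 and M8, and 1.71 and 2.08 in M9 and M10. *Tap1* had 0.728 and 0.755 against 1.19 and 1.36. *H2-K1* had 8.06 and 9.06 against 9.44 and 11.6. For these 3 genes the Syk MC-KO libraries were the higher ones without overlap, by little for *H2-K1*, as they were for 2.36% of all genes tested. *B2m* went the other way, with 45.5 and 46.6 against 21.6 and 22.5, and so did *Tapbp*, with 13.6 and 18.1 against 2.68 and 4.51. *H2-D1* was lower too, with 29.8 and 34.7 against 19.0 and 21.8. With *Tap2*, *Psmb10* and *Nlrc5*, 6 of the 10 genes were lower without overlap on this measure, beside 93.0% of all genes. *Psmb9* overlapped, with 0.283 and 0.561 against 0.559 and 0.618.

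**Figure D2:**
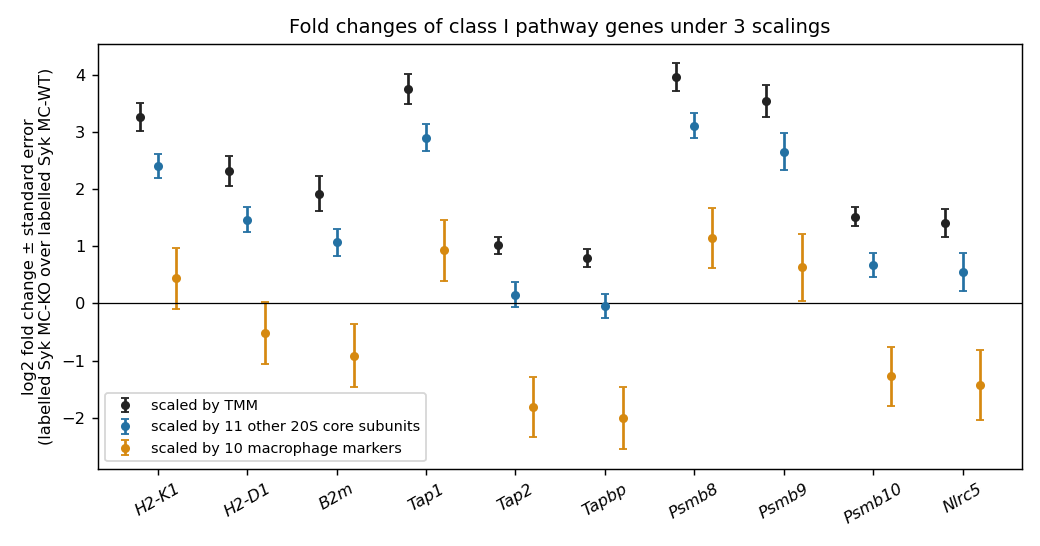
Log2 fold change ± standard error of each gene (n = 2 libraries per genotype) with libraries scaled by TMM (black), by 11 subunits of the 20S proteasome core (blue) and by 10 macrophage markers (orange). The scaling shifts all genes together and leaves *Psmb8* the highest and *Tapbp* the lowest in each of the 3, from 3.96 and 0.79 with TMM to 1.15 and -2.0 with the macrophage markers.

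The heavy chains rose more than their light chain. *H2-K1* (ENSMUSG00000061232, chr17:33996017-34000347, GRCm38) was 90.5 CPM in M7 and 70.3 CPM in M8, against 870 CPM in M9 and 673 CPM in M10. The means were 80.4 ± 14.3 CPM and 771 ± 139 CPM (SD, n = 2). This was a log2 fold change of 3.26 ± 0.244 (standard error) with an adjusted p of 0.000729. *H2-D1* (ENSMUSG00000073411, chr17:35262730-35267499) was 334 and 269 CPM in M7 and M8 and 1750 and 1263 CPM in M9 and M10, a log2 fold change of 2.32 ± 0.262 (standard error) with an adjusted p of 0.00185. *H2-D1* was thus the more abundant heavy chain in every library, and *H2-K1* the one with the larger difference. *B2m* (ENSMUSG00000060802, chr2:122147686-122153083), whose product also pairs with non-classical class I chains, was 510 and 361 CPM against 1991 and 1306 CPM, a log2 fold change of 1.92 ± 0.306 (standard error) with an adjusted p of 0.00517. For each of the 3 genes both Syk MC-KO libraries lay above both Syk MC-WT libraries, as they did for 38.0% of all genes tested.

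Ratios of counts within a library do not depend on the scaling between libraries. They can still change with the mix of cells, which here cannot be told apart from the genotype labels. The ratio of *H2-K1* to *B2m* was 0.177 and 0.195 in M7 and M8 and 0.437 and 0.515 in M9 and M10, 2.55-fold higher in the Syk MC-KO libraries. The ratio of *H2-D1* to *B2m* was 0.656 and 0.745 against 0.879 and 0.967, 1.32-fold higher. For each of the 8 ratios computed, the 2 genotypes did not overlap, but how often this holds for other pairs of genes was not computed. The exact two-sided permutation p was 0.333 for each, the smallest that 2 libraries against 2 can give. No ratio could therefore pass a threshold of 0.05 before or after adjustment. Reads of the heavy chains can be divided between similar genes: 22.8% of the 31-base words in *H2-K1* transcripts and 26.9% of those in *H2-D1* transcripts were also found in transcripts of other genes, 358 words in both of these.

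The transporter genes parted from each other. *Tap1* (ENSMUSG00000037321, chr17:34187553-34197225) was 8.17 and 5.86 CPM in M7 and M8 and 110 and 79.0 CPM in M9 and M10, a log2 fold change of 3.75 ± 0.263 (standard error) with an adjusted p of 0.000674. *Tap2* (ENSMUSG00000024339, chr17:34203527-34216321), which encodes the other chain of the transporter, was 39.5 and 43.4 CPM against 85.4 and 82.0 CPM, a log2 fold change of 1.01 ± 0.151 (standard error) with an adjusted p of 0.00424. *Tap1* counts were 0.207 and 0.135 of *Tap2* counts in M7 and M8 and 1.28 and 0.963 of them in M9 and M10, a ratio 6.65-fold higher in the Syk MC-KO libraries. *Tapbp* (ENSMUSG00000024308, chr17:33915899-33929292) was 153 and 141 CPM against 247 and 262 CPM, a log2 fold change of 0.79 ± 0.160 (standard error) with an adjusted p of 0.0112. *Tapbp* had 18.7 and 24 counts for each count of *Tap1* in M7 and M8, and 2.25 and 3.31 in M9 and M10. With library size only in place of TMM, *Tap2* (0.48, adjusted p = 0.0653) and *Tapbp* (0.25, adjusted p = 0.285) did not pass the threshold and the other 8 did, beside 10.2% of all genes called higher and 32.9% lower. *Tapbp* and *Tap2* share 26.9% and 14.3% of their 31-base words with other annotated genes, most of them with *Gm19412* and *Gm15821*, which makes their counts uncertain.

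The immunoproteasome subunits rose against the constitutive subunits they replace. *Psmb8* (ENSMUSG00000024338, chr17:34197721-34201454), which takes the place of *Psmb5*, was 10.4 and 7.53 CPM in M7 and M8 and 157 and 121 CPM in M9 and M10, a log2 fold change of 3.96 ± 0.245 (standard error) with an adjusted p of 0.000624. *Psmb5* was 64.5 and 58.8 CPM against 111 and 80.8 CPM (log2 fold change 0.64, adjusted p = 0.0422 with edgeR and 0.0520 with DESeq2). *Psmb8* counts were therefore 0.161 and 0.128 of *Psmb5* counts in M7 and M8 and 1.41 and 1.49 of them in M9 and M10, a ratio 10.1-fold higher. These are ratios of counts, and *Psmb8* has the longer exons: per length, *Psmb8* stayed below *Psmb5* in every library, at 102 against 273 in M9 and 59.1 against 149 in M10. Of the 31-base words in *Psmb8* transcripts, 13.7% were also found in other genes, nearly all of them in *Gm20496*, which overlaps it by 498 exon bases. *Psmb9* (ENSMUSG00000096727, chr17:34181987-34187764), which takes the place of *Psmb6*, was 3.17 and 4.35 CPM against 51.5 and 35.9 CPM, a log2 fold change of 3.54 ± 0.283 (standard error) with an adjusted p of 0.000834. *Psmb6* had a log2 fold change of 1.01 (adjusted p = 0.00522), and the ratio of *Psmb9* to *Psmb6* went from 0.0406 and 0.0608 to 0.320 and 0.256, 5.76-fold higher.

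*Psmb10* lies outside the MHC (ENSMUSG00000031897, chr8:105935735-105938444) and takes the place of *Psmb7*. It was 23.4 and 19.5 CPM in M7 and M8 and 61.2 and 61.7 CPM in M9 and M10, a log2 fold change of 1.52 ± 0.170 (standard error) with an adjusted p of 0.00181. *Psmb7* had a log2 fold change of 0.76 (adjusted p = 0.0279), and the ratio of *Psmb10* to *Psmb7* was 0.213 and 0.232 against 0.336 and 0.421, 1.69-fold higher. The 3 inducible subunits thus differed in size of change, with *Psmb10* the smallest. When libraries were scaled to 11 other subunits of the 20S core, *Psmb8* (3.11, adjusted p = 0.000314), *Psmb9* (2.65, adjusted p = 0.000614) and *Psmb10* (0.68, adjusted p = 0.0279) still passed the threshold, beside 7.94% of all genes called higher and 45.1% lower. In that scaling 7 of the 10 genes were called higher and *Tap2*, *Tapbp* and *Nlrc5* were not. *Psmb9* and *Tap1* overlap by 212 exon bases on opposite strands, and whether the counting used strand is not given in the sources used here.

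**Figure D3:**
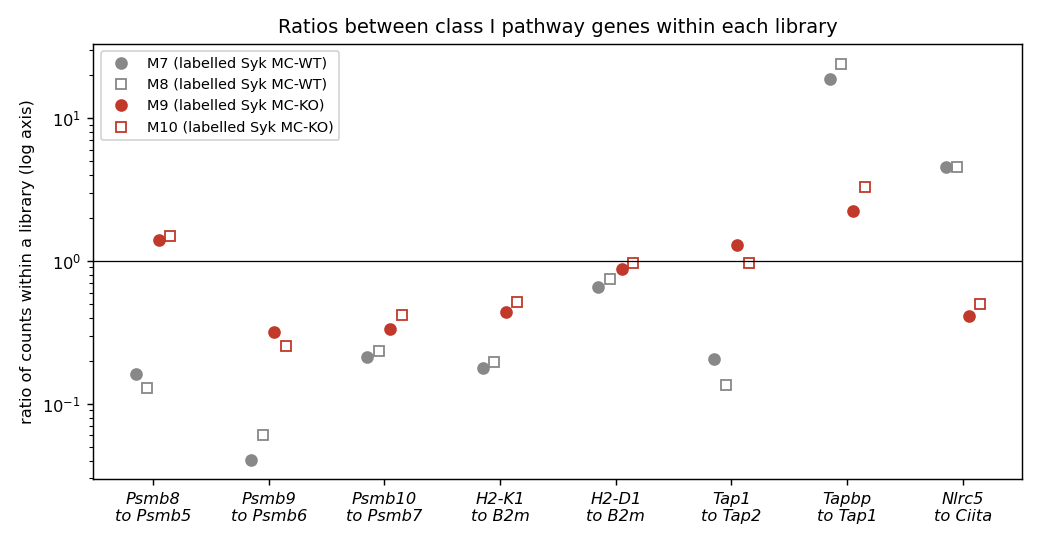
Ratio of counts between paired genes within each library (log axis, a line at 1), with libraries marked as in the plot of CPM. *Psmb8* passed from 0.161 and 0.128 of *Psmb5* to 1.41 and 1.49 of it, and *Nlrc5* from above *Ciita* to below it. Counts are not divided by gene length, so the line at 1 marks equal counts and not equal levels.

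*Nlrc5* rose as well with TMM, by a log2 fold change within the standard errors of that of *Psmb10*. This was below the changes of *H2-K1*, *Tap1*, *Psmb8* and *Psmb9*, and whether *Nlrc5* had a part in any of them was not tested. Scaled to the macrophage markers, *Nlrc5* was called lower (log2 fold change -1.43), as were 87.3% of all genes. *Nlrc5* (ENSMUSG00000074151, chr8:94434356-94527272) was 5.43 and 6.27 CPM in M7 and M8 and 15.4 and 15.5 CPM in M9 and M10, a log2 fold change of 1.4 ± 0.244 (standard error) with an adjusted p of 0.00692. *Ciita*, which encodes its class II counterpart, was 1.20 and 1.38 CPM against 37.5 and 31.2 CPM, a log2 fold change of 4.73 (adjusted p = 0.000486). *Nlrc5* counts were 4.52 and 4.53 times those of *Ciita* in M7 and M8 and 0.411 and 0.498 times those in M9 and M10. The order of these transactivators was therefore reversed between the genotypes as labelled.

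Other regulators of class I genes were mixed. Of 14 enhanceosome and interferon regulators, *Ciita* among them, 6 rose, 1 fell and 7 did not pass the threshold, beside 22.7% of all genes called higher and 16.7% lower, and their median log2 fold change was 0.19 against 0.02 for all genes. *Ifngr1* and *Ifngr2*, which encode the interferon gamma receptor, rose by log2 fold changes of 1.33 (adjusted p = 0.00385) and 1.47 (adjusted p = 0.00552). *Irf1*, which encodes an interferon-induced activator of class I promoters, was 58.0 and 61.3 CPM in M7 and M8 and 63.0 and 71.7 CPM in M9 and M10 (log2 fold change 0.17, adjusted p = 0.403). *Rfxank*, which encodes an RFX subunit, fell by 0.73 on the log2 scale (adjusted p = 0.0181). *Rfxap*, which encodes another RFX subunit, rose by 0.62 (adjusted p = 0.0455 with edgeR and 0.0979 with DESeq2). *Rfx5*, which encodes the remaining RFX subunit, was 39.3 and 34.6 CPM against 15.1 and 26.5 CPM (log2 fold change -0.83, adjusted p = 0.0570 with edgeR and 0.0145 with DESeq2).

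The remaining steps of the pathway had smaller median changes than the 10 genes. Of the 9 genes for folding, trimming and editing in the endoplasmic reticulum, 4 rose and 5 did not pass the threshold (median log2 fold change 0.64), where 22.7% of all genes rose. *Tapbpl*, which encodes a peptide editor related to tapasin, rose by 1.03 (adjusted p = 0.0234), *Erap1*, which encodes the peptidase that trims peptides for class I, by 1.0 (adjusted p = 0.0202), and *Pdia3*, which encodes a partner of tapasin, by 0.89 (adjusted p = 0.0202). *Uggt1*, which encodes a folding sensor of glycoproteins, had a log2 fold change of -0.21 (adjusted p = 0.294). Of 5 proteasome activator and assembly genes 4 rose (median 0.98), among them *Psme1* and *Psme2*, which encode the interferon-induced activator PA28, by 1.41 (adjusted p = 0.00159) and 0.98 (adjusted p = 0.00721), and *Pomp*, which encodes an assembly factor, by 1.31 (adjusted p = 0.00507). All 3 constitutive catalytic subunits (median 0.76) and 10 of 11 other 20S core subunits (median 0.85) rose as well, by log2 fold changes of at most 1.19. Over the 42 wider pathway genes, 27 rose and 1 fell with TMM, against 22.7% and 16.7% of all genes. With library size only 6 rose and 6 fell (10.2% and 32.9% of all genes), so that the share that rose was then near that of all genes. When scaled to the 20S core 2 rose and 12 fell (7.94% and 45.1% of all genes). The 11 subunits that set this scaling are among the 42 and could hardly be called in it (0 higher and 0 lower). These counts were therefore partly fixed in advance. In both the macrophage and the leukocyte scaling 1 rose, *Ciita*, and 41 fell. Of all genes, 0.760% rose and 87.3% fell in the macrophage scaling, and 0.565% rose and 90.4% fell in the leukocyte scaling. Without M7 or without M8, which leaves 1 Syk MC-WT library, fewer of the 42 and fewer of all genes were called higher. Without M8 the share of the 42 that rose was near that of all genes. The log2 fold changes moved little for some genes, for *Psmb6* to 1.07 without M7 and 0.94 without M8 and for *Psme2* to 0.91 and 1.04. They moved more for others, for *Psmb7* to 0.97 without M7 and 0.57 without M8 and for *Ifngr2* to 1.84 and 1.17.

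**Figure D4:**
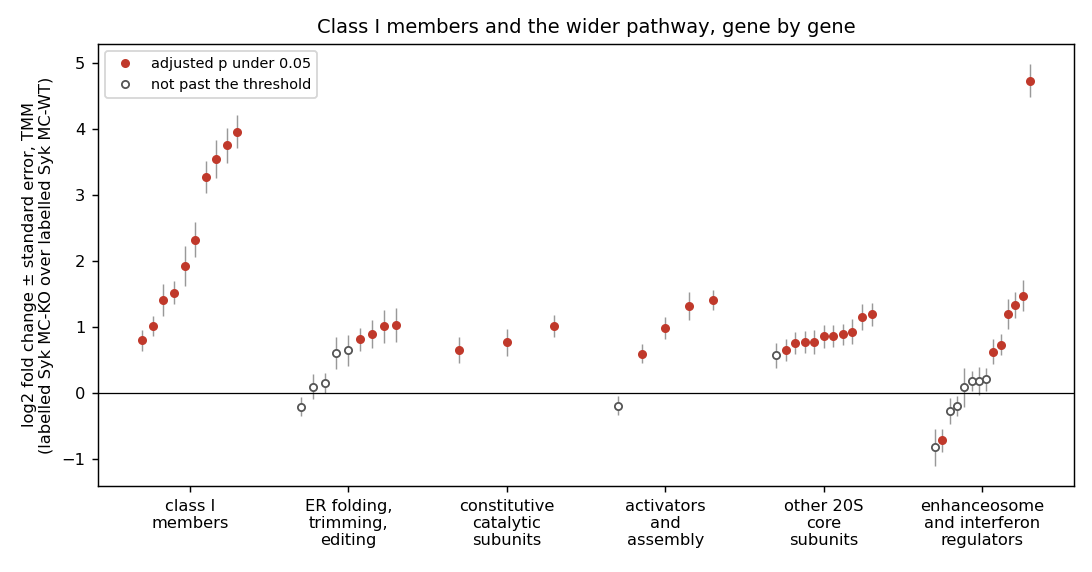
Log2 fold change ± standard error with TMM (n = 2 libraries per genotype) for each of the 10 class I genes and the 42 genes of the wider pathway, with red points past an adjusted p of 0.05 and open points not. The 10 class I genes run from 0.79 to 3.96, the 20S core subunits lie between 0.56 and 1.19, and *Ciita* stands alone at 4.73 among the regulators.

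The levels of different genes were compared per length, as counts divided by summed exon length and scaled to the same total in each library. *B2m* was the highest of the 10 in every library, at 2371 and 1617 in M7 and M8 and 5091 and 2513 in M9 and M10, and *H2-D1* was next, between 402 and 518 in the Syk MC-WT libraries and between 810.0 and 1492 in the Syk MC-KO libraries. *Tapbp* followed in M7 and M8, at 168 and 149, above *H2-K1* at 123 and 92.1. In M9 and M10 *H2-K1* followed instead, at 651 and 379, above *Tapbp* at 149 and 119. *Psmb8*, at 12.2 and 8.57, lay below *Psmb10* at 54.9 and 44.1 in M7 and M8. In M9 *Psmb8* lay above *Psmb10*, at 102 against 78.9, and in M10 the values were 59.1 and 59.9, so their order did not hold within the Syk MC-KO libraries. *Nlrc5* was the lowest of the 10 in every library, between 2.56 and 3.98.

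The genes whose profile over the 4 libraries lay nearest to the median profile of the 10, by the root mean square difference of centred log2 CPM among 12838 protein-coding genes outside the lists, were *Adap2*, *Sdf2l1*, *Mgarp*, *Rgs10* and *Slc7a7*, at distances from 0.02 to 0.05. In all, 293 of the 12838 lay within 0.25. Among the 10 genes themselves *H2-D1* lay nearest to the median profile (0.08) and *Psmb8* farthest from it (0.90).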

How the data were processed

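RNA sequencing counts of TAMs from 2 libraries labelled SYK WT and 2 labelled SYK KO were analysed. The authors used STAR against mm10 and then Salmon within bcbio, and they deposited raw counts, 1 whole number for each Ensembl gene and library. The submitters' processing notes list STAR 2.6.1d and Salmon 1.4.0. How Salmon's estimates became whole numbers is not given in the sources used here, and Salmon can divide reads among similar genes. The methods describe single reads in triplicate on a HiSeq instrument, whereas the labels describe paired reads on a NovaSeq instrument and 2 libraries per genotype.

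Symbols, positions and exon lengths came from GENCODE M21 on GRCm38 (54495 genes matched), and promoters from RefSeq on GRCm38.p6. In R 4.3.3, genes passing filterByExpr were normalized by TMM (factors 1.22, 1.19, 0.876 and 0.787 for M7 to M10) and edgeR 4.0.16 (functions glmQLFit, glmQLFTest) compared the genotypes over 16451 genes. Adjusted p-values are Benjamini-Hochberg values, called under 0.05. Standard errors were the absolute log2 fold change over the square root of F. Ratios within a library were compared by an exact two-sided permutation test. The smallest signal taken as detectable, 3 counts, was between 0.109 and 0.163 CPM, for counting error only. Libraries of one genotype differed beyond sampling noise (chi-square per degree of freedom 50.6 and 168). Alternatives were DESeq2 size factors, library size only, scaling to 10 macrophage markers, 6 pan-leukocyte genes or 11 20S core subunits, leaving out mitochondrial and rRNA genes, filters of at least 1 count in all or 10 counts in every library, the DESeq2 1.42.0 Wald test, a size limit of 1 on the log2 fold change, and each library left out in turn. The genes named were the 10 members, *Syk*, genes of the pathway and marker lists, and the 5 genes nearest in profile. The members, lists and motifs were chosen with earlier results of these data known. Some genes of these lists count in the totals and are not reported by name here.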

Additional observations from a re-analysis of the deposited data

How the results depend on the processing

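With DESeq2 size factors, without mitochondrial and rRNA genes, under either other filter and with the DESeq2 Wald test, all 10 class I genes were called higher. With 2 libraries per genotype each call rests on the error model fitted across genes, and a fit without a library assumes that the lone library varies like the other genotype. The choice of scaling changed the sign for some genes, and the cause was not tested. No paired analysis was possible because the labels give no pairing of the libraries.

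Class I genes called higher and lower numbered 10 and 0 with TMM, 1 and 4 when scaled to the macrophage markers and 1 and 6 when scaled to the pan-leukocyte genes, and without each library between 7 and 10 were called higher and 0 lower. Wider pathway genes called higher numbered 27 with TMM, 6 with library size only, 1 in the macrophage scaling, 1 in the leukocyte scaling, 2 in the 20S core scaling, 11 with a log2 fold change of at least 1, and between 5 and 31 without each library. Those called lower numbered 1 with TMM, 6 with library size only, 41 in the macrophage and 41 in the leukocyte scaling, 12 in the 20S core scaling, 0 with a log2 fold change of at least 1, 2 with DESeq2 size factors, the Wald test, either other filter or without mitochondrial and rRNA genes, and between 0 and 4 without each library. All genes called higher and lower numbered 3729 and 2747 with TMM, 1677 and 5411 with library size only, 125 and 14360 in the macrophage scaling, 93 and 14873 in the leukocyte scaling, 1306 and 7419 in the 20S core scaling, and 2426 and 1849 with a log2 fold change of at least 1. Those called lower numbered 2863 with DESeq2 size factors, 2909 with the Wald test and 3055 without mitochondrial and rRNA genes. With every gene of at least 1 count 3376 of all genes were lower, and with at least 10 counts in every library 2777 were. Without each library, between 1478 and 5010 were higher and between 807 and 4745 lower. The median log2 fold change of all genes was 0.02 with TMM, -0.52 with library size only, -2.79 in the macrophage scaling, -3.17 in the leukocyte scaling and -0.83 in the 20S core scaling, a shift that each scaling gives to every gene.

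Among the genes named in the text, the log2 fold change turned negative in the macrophage scaling for *Syk* (-0.019), *H2-D1* (-0.52), *B2m* (-0.92), *Tap2* (-1.82), *Tapbp* (-2.0), *Psmb10* (-1.27), *Nlrc5* (-1.43), *Pdia3* (-1.93), *Erap1* (-1.86), *Tapbpl* (-1.80), *Psmb5* (-2.21), *Psmb6* (-1.82), *Psmb7* (-2.05), *Psme1* (-1.41), *Psme2* (-1.88), *Pomp* (-1.52), *Irf1* (-2.63), *Rfxap* (-2.17), *Ifngr1* (-1.51) and *Ifngr2* (-1.29). In the leukocyte scaling it did so for *Syk* (-0.39), *H2-D1* (-0.89), *B2m* (-1.29), *Tap2* (-2.19), *Tapbp* (-2.38), *Psmb10* (-1.66), *Nlrc5* (-1.79), *Pdia3* (-2.31), *Erap1* (-2.22), *Tapbpl* (-2.17), *Psmb5* (-2.58), *Psmb6* (-2.19), *Psmb7* (-2.43), *Psme1* (-1.79), *Psme2* (-2.24), *Pomp* (-1.89), *Irf1* (-3.00), *Rfxap* (-2.55), *Ifngr1* (-1.88) and *Ifngr2* (-1.69). In the 20S core scaling it did so for *Tapbp* (-0.052), *Psmb5* (-0.22), *Psmb7* (-0.087), *Rfxap* (-0.22) and *Irf1* (-0.67), and with library size only for *Irf1* (-0.36). The genotypes did not overlap in any of the 8 ratios within a library, so leaving a library out could not change a direction. Adding 1 count to each gene could hardly do so, and did not. The *Psmb8* to *Psmb5* difference stayed between 3.18 and 3.50 on the log2 scale when each library was left out.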

Other observations

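The libraries labelled Syk MC-KO also differed from each other in the class I genes. *H2-K1*, *H2-D1*, *B2m*, *Tap1*, *Psmb8* and *Psmb9*, the 6 genes with the largest log2 fold changes, were each higher in M9 than in M10 by a ratio of CPM between 1.29 and 1.52. For *Tap2*, *Tapbp*, *Psmb10* and *Nlrc5* the ratio lay between 0.942 and 1.04. The 10 macrophage markers were each higher in M9 than in M10 as well, by ratios between 1.15 and 2.01. Mitochondrial genes took 6.00% of the counts in M9 and 15.9% in M10, and the part of either in the difference was not tested. Each ratio compares 1 library with 1 other and has no replicate check.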
